A study of Homo sapiens with 48 samples.

Results

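The cytosolic ribosome is built from ribosomal RNA and a set of small, mostly basic proteins, and the genes for these proteins were taken here as a group. Members were the rows of the count tables whose gene symbol is RPL or RPS followed by a number, with or without a letter, or is RPLP0, RPLP1, RPLP2 or RPSA. This rule found 83 of 14685 genes. They comprised 43 large subunit genes, 31 small subunit genes, the 3 stalk genes and 6 minor paralogs, which are RPL3L, RPL7L1, RPL22L1, RPL26L1, RPL39L and RPS27L. The rule used names only, and all 83 genes passed the filter on low counts. The 74 ribosomal protein pseudogenes in the tables were left out.

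The RNA came from HEK293T, a human embryonic kidney line described as epithelial-like with wild-type genotype, transfected with a plasmid for NCBP1 fused to Halo. NCBP1 belongs to the complex that holds the cap of an mRNA in the nucleus. In the T-REX arm the cells were given the Halo-directed probe Ht-PreHNE and then light, which frees the lipid-derived electrophile HNE beside the fusion protein. The light alone arm is labelled as a UV control, and the study's methods also name the probe for it, so whether its cells were given probe was not settled here. The probe alone arm had Ht-PreHNE without light, and the DMSO arm had vehicle without light. All 4 arms carried the plasmid. Each arm was sampled at 3, 6 and 12 h with 4 libraries, described as independent biological replicates, which gave 48 libraries. The question was whether HNE modification of NCBP1 moved ribosomal protein mRNAs away from all 3 controls.

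Ribosomal proteins are made in the cytosol, carried into the nucleus and nucleolus, and assembled there with ribosomal RNA before the subunits are exported. Most of their mRNAs begin with a 5′ terminal oligopyrimidine tract, called TOP, which starts with a C at the cap. Through this tract the repressor LARP1 and the kinase mTORC1 set how much of the mRNA is translated. RPS6 is the substrate after which the S6 kinases are named. When assembly fails, RPL5 and RPL11 that are not in ribosomes bind the ubiquitin ligase MDM2.

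Total counts per library ran from 23952455 to 37099535. NCBP1, plasmid and endogenous copies together, took 3.09% to 8.99% of the counts of a library, and mitochondrial genes took 7.38% to 9.80%. For T-REX over DMSO the log2 fold change of NCBP1 was 0.50 ± 0.12 (SE) at 3 h and 0.73 ± 0.13 at 12 h, and over light alone it was 0.80 ± 0.14 at 6 h. These differences had adjusted p-values of 0.029, 0.0025 and 0.021 in the edgeR fit across all genes. The controls differed too, and at 12 h NCBP1 took 5.41% to 7.53% of counts with probe alone and 3.09% to 4.18% with DMSO. Where T-REX and a control differ in NCBP1 RNA, its amount and its HNE modification cannot be told apart. Of the 7 HEK293T markers checked, 5 were in the tables, VIM, KRT8, KRT18, NEFL and NEFM, while PAX2 and PAX8 were not. Of 11 markers of other cell types, ACTA2 and COL1A1 were in the tables. Within T-REX at 3 h, replicate 3 was high for the ribosomal protein genes, with a median deviation of 0.31 in log2 CPM from its arm mean. The counts and medians of the T-REX comparisons at 3 h are given with and without it. It was singled out by these same genes. Leaving it out therefore lowers T-REX for the group by construction, and calls made without it are no separate support. In bulk RNA, fewer cells of a type and less RNA per cell cannot be told apart.

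The sequences around the annotated starts show which of the genes named in the results carry a TOP tract. RefSeq promoter windows on GRCh38.p14 were held for 66 of the 83 genes. A start was counted as TOP when base +1 was C and at least the next 4 bases were C or T, read on the strand of the gene. The rule misses a tract offset from the annotated start. RPL10A and RPL9, which it did not count, have pyrimidine runs within their first 15 annotated bases. By this rule 47 of 66 genes (71.2%) had a TOP start in at least 1 window, against 732 of 10383 other genes of the tables (7.05%) and 4.07% of all 35116 windows. The tract had a median length of 8 bases. The motif CGGAAG, searched on both strands of the 250 bases before the start, was in at least 1 window of 40 of 66 genes (60.6%), against 3456 of 10383 other genes of the tables (33.3%) and 16.5% of all windows. Each line gives the 15 bases before the start and the first 15 transcribed bases, with the TOP tract in capitals. The first 3 genes are the S6 kinase substrate and the pair called lower with T-REX than with DMSO at 3 h.
RPS6, chr9:19380222-19380251, minus strand: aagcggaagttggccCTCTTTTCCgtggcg
RPS3A, chr4:151099613-151099642, plus strand: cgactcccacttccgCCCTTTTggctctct
RPL7A, chr9:133348203-133348232, plus strand: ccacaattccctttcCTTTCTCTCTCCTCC
The next 4 belong to genes called at 12 h, and RPS15 is the one of these 4 without a tract at its annotated start. No window was held for RPL30 and RPL7, which were also called at 12 h.
RPL34, chr4:108620561-108620590, plus strand: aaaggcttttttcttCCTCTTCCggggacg
RPL31, chr2:101002274-101002303, plus strand: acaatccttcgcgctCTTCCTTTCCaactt
RPS21, chr20:62387088-62387117, plus strand: ggtgactagctgcttCCTTTCTCTCTCgcg
RPS15, chr19:1438381-1438410, plus strand: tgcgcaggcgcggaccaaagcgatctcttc
The stalk genes all have a tract.
RPLP0, chr12:120201097-120201126, minus strand: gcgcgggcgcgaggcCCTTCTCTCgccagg
RPLP1, chr15:69452803-69452832, plus strand: gtataggcgcgagagCCCCTTTCCTCagct
RPLP2, chr11:809952-809981, plus strand: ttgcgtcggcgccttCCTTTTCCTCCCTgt
Among the paralogs, RPL22L1 has one, and RPL7L1, RPL26L1 and RPS27L do not at their annotated starts. No window was held for RPL3L and RPL39L.
RPL22L1, chr3:170870181-170870210, minus strand: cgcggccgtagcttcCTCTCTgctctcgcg
RPL7L1, chr6:42879601-42879630, plus strand: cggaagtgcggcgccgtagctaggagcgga
RPS27L, chr15:63157463-63157492, minus strand: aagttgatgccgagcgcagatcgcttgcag

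The 83 genes differed widely in level. Before any correction for length, the mean over the 48 libraries ran from 1.41 CPM for RPL3L, the muscle paralog of RPL3, to 1874 CPM for RPS2 of the small subunit. RPS4X, the X-linked copy of RPS4, followed at 1213 CPM and RPS6 at 1092 CPM. Per kilobase of the GENCODE principal transcript, RPS2 led at 1902 CPM per kb. RPS4X (795), RPS6 (787), RPL7A (785) and RPS3A (761) followed, and the median gene was at 154 CPM per kb. These lengths ran from 344 to 7686 bases, so a level per kb depends on the transcript model chosen.

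RPLP0, the base of the stalk, was at 182 CPM per kb and above the median gene. RPLP1 at 44.1 CPM per kb, RPLP2 at 12.2 and the paralogs were below it. RPLP1 and RPLP2 are the acidic proteins that recruit translation factors. Of the parent and paralog pairs, RPL3 was at 284 CPM per kb and RPL3L at 0.648. RPL7 was at 436 and RPL7L1 at 35.1, and RPL39 at 595 against 4.71 for RPL39L. RPL22 was at 21.5 and RPL22L1 at 5.28, and RPS27 was at 62.7 and RPS27L at 8.74. RPL26 (18.8) and RPL26L1 (25.6) were the pair in which the paralog had the higher value. RPL10L was not in the tables, while RPL10, which joins the large subunit late in its assembly, was at 316.

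Some low values concern genes that share sequence with a neighbour. RPL17 (1.73 CPM) and RPS10 (3.18 CPM) each overlap a readthrough gene, RPL17-C18orf32 and RPS10-NUDT3, and they are among 13 members with an overlapping gene on the same strand. How reads in shared exons, or in processed pseudogenes, were assigned is not given in the sources used here. The most counted pseudogene was RPS2P5, with a median of 3744 reads, while RPS2 had 56454. The levels of RPL17, RPS10, RPL36A (11 CPM) and RPS2 are therefore uncertain.

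Together the 83 genes took 1.91% to 2.68% of a library's counts. At 3 h the T-REX libraries were at 1.98%, 2.23%, 2.68% and 2.31%. The light alone libraries were at 2.11%, 2.22%, 2.19% and 2.08%. The probe alone libraries were at 2.53%, 2.29%, 2.45% and 2.32%, and the DMSO libraries at 2.37%, 2.35%, 2.29% and 2.29%. The T-REX values spanned those of all 3 controls, while without replicate 3 none of them was above 2.31%, and the light alone values lay below every probe alone and every DMSO value.

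At 6 h the T-REX libraries lay from 2.2% to 2.39%, light alone from 1.91% to 2.64%, probe alone from 2.05% to 2.38% and DMSO from 2.11% to 2.47%. At 12 h they lay from 2.18% to 2.32%, from 2.13% to 2.30%, from 2.1% to 2.56% and from 1.98% to 2.48%, in the same order. The ranges of all arms overlapped at both times. With NCBP1 left out of the total, the light alone libraries at 3 h (2.21% to 2.37%) still lay below those of probe alone (2.44% to 2.70%) and DMSO (2.42% to 2.5%). Mitochondrial genes took 7.49% to 8.43% of the light alone counts and 8.27% to 9.05% of the probe alone counts at 3 h, and the part of that difference in the shares was not tested.

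T-REX against light alone at 3 h gave no called member, where called means an adjusted p of at most 0.05, beside 0.197% of all genes called. RPS27A, a fusion of ubiquitin and a small subunit protein, had the smallest adjusted p, with a log2 fold change of 0.24 ± 0.07 (SE) and an adjusted p of 0.096 that did not pass. At an unadjusted p of at most 0.05 there were 28 members, or 33.7%, beside 14.8% of all genes. The median log2 fold change was 0.14 over the members and 0.00 over all genes, and 67 of 83 members were above 0. DESeq2 called 8 members higher, beside 1.77% of all genes. Without replicate 3 of T-REX, edgeR again called 0 members, the median was 0.04 and 55 members were above 0. RPS27A was then at 0.18 with an adjusted p of 0.15.

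T-REX against probe alone at 3 h likewise gave 0 members, beside 1.05% of all genes called. The median was -0.06 over members and 0.02 over all genes, and 12 members (14.5%) had an unadjusted p of at most 0.05 beside 18.0% of all genes. DESeq2 called 4 members lower, beside 4.24% of all genes. Without replicate 3 of T-REX, edgeR called 5 members lower, beside 3.64% of all genes, and the median was -0.17.

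T-REX against DMSO at 3 h gave 2 members, both lower, which is 2.41% of the group beside 5.99% of all genes called, 4.54% lower and 1.45% higher. RPS3A, a protein of the small subunit, was at 595, 655, 576 and 606 CPM with T-REX. It was at 767, 759, 713 and 753 CPM with DMSO, so that every T-REX library lay below every DMSO library. This held for 2 of the 83 members, beside 7% of all genes. RPS3A fell by 0.30 ± 0.06 (SE) on the log2 scale, with an adjusted p of 0.0081, and it was lower with an adjusted p of at most 0.05 in all 25 alternative fits.

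The other 2 controls lay between for RPS3A. Light alone was at 698, 700, 697 and 601 CPM, and probe alone at 740, 783, 681 and 642 CPM. The log2 fold change of T-REX was -0.15 against light alone (adjusted p = 0.25) and -0.21 against probe alone (adjusted p = 0.083). RPS3A was therefore called against 1 of 3 controls at 3 h.

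RPL7A, a large subunit protein, was at 558, 721, 582 and 637 CPM with T-REX and at 801, 786, 686 and 847 CPM with DMSO. Replicate 2 of T-REX was above the lowest DMSO library, so the groups overlapped. It fell by 0.32 ± 0.08 on the log2 scale with an adjusted p of 0.031, a call kept in 17 of 25 alternatives. Against probe alone (818, 835, 737 and 709 CPM) the log2 fold change was -0.30 with an adjusted p of 0.079, and against light alone (759, 606, 655 and 640 CPM) it was -0.09 with an adjusted p of 0.67. RPS2 had the third largest mean decrease over the 3 controls, -0.17, with T-REX libraries from 924 to 1975 CPM and DMSO libraries from 1533 to 2135 CPM. Without replicate 3 of T-REX this mean was -0.31, and RPL7A against DMSO had an adjusted p of 0.077. In that fit 7 members were called lower than with DMSO, beside 6.28% of all genes, and the median was -0.08, against 0.03 with replicate 3.

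The largest mean increases over the 3 controls at 3 h were in RPLP2, RPL36 and RPLP1, and none was called. RPLP2 was at 5.01, 8.20, 32.9 and 21.5 CPM with T-REX and at 9.78, 7.35, 10.2 and 6.52 CPM with DMSO. RPL36, a large subunit protein, was at 10.7, 11.7, 34.3 and 18.7 CPM against 11.9, 11.4, 10.8 and 8.43 CPM. RPLP1 was at 38.6, 47.7, 133 and 66.4 CPM against 52.9, 46.2, 56.5 and 44.7 CPM. In all 3 genes replicate 3 of T-REX was the highest of the 16 libraries, and replicate 1 of T-REX lay within the DMSO values or below them. The mean log2 fold changes over the 3 controls were 0.91, 0.67 and 0.50, and the adjusted p-values against DMSO were 0.29, 0.16 and 0.37. Without replicate 3 of T-REX these means were 0.36, 0.21 and 0.01.

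RPS6 did not stand apart at 3 h. Its T-REX libraries were at 1061, 1168, 1188 and 1050 CPM, and its DMSO libraries at 1106, 1173, 1143 and 1183 CPM. The log2 fold change against DMSO was -0.04 ± 0.05 (adjusted p = 0.69). RPL9 and RPL32, both of the large subunit, were at -0.16 ± 0.05 (adjusted p = 0.064) and -0.15 ± 0.07 (adjusted p = 0.25). RPL5 was at -0.04 and RPL11 at 0.26 ± 0.17, with adjusted p-values of 0.77 and 0.40. Without replicate 3 of T-REX, RPL32 was called lower than with DMSO (-0.24, adjusted p = 0.027) and than with probe alone (-0.23, adjusted p = 0.040). RPL5 was then called lower than with probe alone (-0.20, adjusted p = 0.046), and RPL11 was at 0.05 against DMSO.

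At 6 h no member was called for T-REX against light alone, probe alone or DMSO, beside 0.218%, 0.109% and 0.415% of all genes. The counts at an unadjusted p of at most 0.05 were 3, 1 and 11 members (3.61%, 1.20% and 13.3%), beside 11.7%, 6.56% and 12.4% of all genes. DESeq2 called 0, 0 and 2 members, beside 153, 57 and 288 of all 14685 genes. The medians over members were 0.05, 0.04 and 0.00, and over all genes 0.01, 0.01 and -0.00. RPL10 had the second largest mean increase, 0.29, after RPL3L (0.41) and before RPL39L (0.28), the paralog of RPL39. RPL10 was at 800, 854, 859 and 746 CPM with T-REX, at 612, 911, 415 and 761 CPM with light alone, at 705, 741, 630 and 642 CPM with probe alone, and at 599, 649, 780 and 573 CPM with DMSO. The T-REX libraries all lay above the probe alone libraries and overlapped those of light alone and DMSO. RPL10 was the 1 member wholly above probe alone, beside 3.05% of all genes.

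RPS15, whose tail reaches the decoding centre, had the largest mean decrease at 6 h, -0.42. It was at 128, 137, 148 and 169 CPM with T-REX and at 283, 183, 357 and 156 CPM with DMSO, where replicates 1 and 3 were high. The log2 fold change against DMSO was -0.75 ± 0.21, with an adjusted p of 0.15. RPLP2 followed with a mean of -0.24, and its DMSO replicates 1 and 3 were also the highest (15.4, 7.65, 21.9 and 8.37 CPM). RPS10 had a mean of -0.24. RPS6 was at 1127, 1202, 1271 and 1036 CPM with T-REX and 1018, 1012, 1072 and 940 CPM with DMSO, a log2 fold change of 0.20 ± 0.10 (adjusted p = 0.48).

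RPL9 at 6 h was at 683, 677, 710 and 605 CPM with T-REX and at 597, 587, 545 and 612 CPM with DMSO, with a log2 fold change of 0.19 ± 0.07 and an adjusted p of 0.25. RPL32 was at 509, 634, 568 and 560 CPM against 569, 586, 599 and 534 CPM, with a log2 fold change of -0.01 ± 0.06 and an adjusted p of 0.97. The values of both genes overlapped between T-REX and DMSO.

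At 12 h T-REX against light alone gave 0 members beside 1.29% of all genes, and T-REX against probe alone gave 0 members beside 0.701%. The medians over members were 0.03 and -0.11, while those over all genes were 0.00 in both. At an unadjusted p of at most 0.05 there were 2 members (2.41%) and 25 members (30.1%), beside 12.9% and 11.1% of all genes. DESeq2 called 0 and 3 members, beside 409 and 257 of all 14685 genes. A fit on the 2 arms alone called 14 members higher with T-REX than with light alone, beside 7.67% of all genes, against 0 in the fit of all 16 libraries. Against probe alone, 12 members were called lower once replicate 4 of probe alone was left out, beside 1.42% of all genes.

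T-REX against DMSO at 12 h gave 6 members, all lower, or 7.23% of the group, beside 10.9% of all genes called, 6.79% lower and 4.09% higher. The share of members was thus near that of all genes. They were RPL30, RPL31, RPL34 and RPL7 of the large subunit and RPS15 and RPS21 of the small subunit, named after their values were seen. The median over the 83 members was -0.02 and over all genes 0.00.

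RPL30 was at 161, 159, 160 and 155 CPM with T-REX and at 216, 181, 217 and 170 CPM with DMSO. RPL34 was at 179, 183, 172 and 166 CPM against 214, 211, 217 and 187 CPM. In these 2 genes no T-REX library reached a DMSO library. Of the 83 members, 3 lay wholly below DMSO in this way, beside 7.52% of all genes. RPL30 fell by 0.31 ± 0.07 (SE) on the log2 scale and RPL34 fell by 0.25 ± 0.06, with adjusted p-values of 0.0097 and 0.012. Light alone was close to T-REX in both, at 160, 169, 156 and 168 CPM for RPL30 and at 179, 181, 178 and 192 CPM for RPL34, and the log2 fold changes of T-REX against it were -0.04 and -0.06.

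RPL31, which lies beside the exit of the nascent peptide tunnel, was at 299, 336, 316 and 307 CPM with T-REX and at 376, 356, 428 and 329 CPM with DMSO. RPL7 was at 412, 461, 429 and 458 CPM against 505, 496, 549 and 456 CPM. In both genes a single DMSO library, replicate 4, lay within the T-REX values. RPL31 fell by 0.25 ± 0.06 on the log2 scale with an adjusted p of 0.016, and RPL7 fell by 0.19 ± 0.06 with an adjusted p of 0.047. The call of RPL7 was kept in 7 of 25 alternatives, and that of RPL31 in 23.

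RPS21 was at 57.8, 66.3, 68.4 and 71.7 CPM with T-REX and at 117, 78.8, 97.3 and 68.2 CPM with DMSO. RPS15 was at 131, 125, 163 and 154 CPM against 332, 192, 364 and 152 CPM. In both genes DMSO replicates 1 and 3 were high and replicate 4 lay within the T-REX values. RPS21 fell by 0.45 ± 0.13 and RPS15 fell by 0.86 ± 0.24 on the log2 scale, with adjusted p-values of 0.031 and 0.037. RPS15 kept its call in 14 of 25 alternatives. Without DMSO replicate 4 there were 13 members called lower, beside 18.1% of all genes, and without T-REX replicate 1 there were 2, beside 5.41%.

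**Figure D1:**
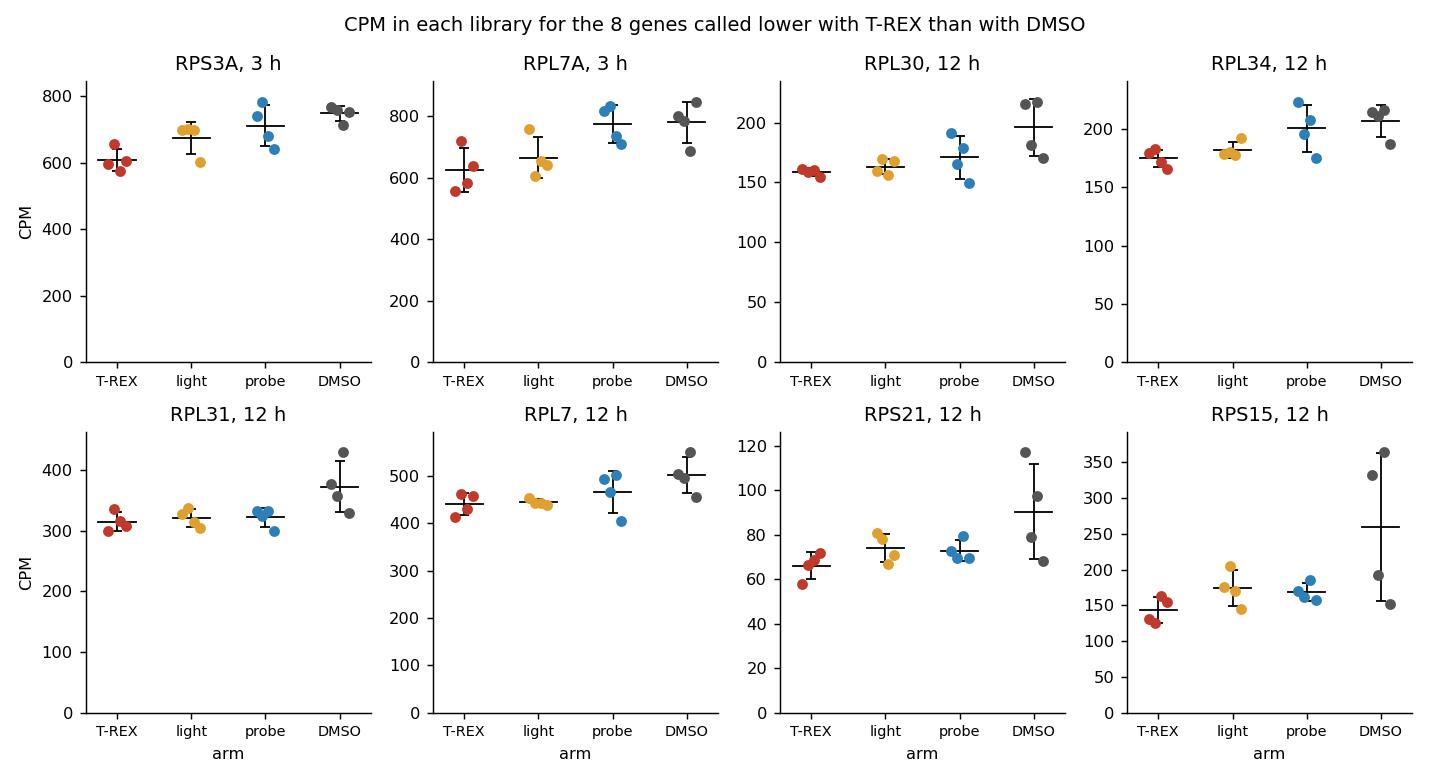
CPM in each of the 4 libraries of each arm for the 8 genes called lower with T-REX than with DMSO, RPS3A and RPL7A at 3 h and the other 6 at 12 h, where horizontal lines are means and bars are 1 SD. RPS3A, RPL30 and RPL34 do not overlap between T-REX and DMSO, and the spread of RPS15 and RPS21 is widest in DMSO. Of the 83 members, 2 at 3 h and 3 at 12 h lie wholly below DMSO, beside 7% and 7.52% of all genes.

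The remaining genes named by rule at 12 h were not called. Beside RPS15 (-0.46), the largest mean decreases were -0.43 for RPL17 and -0.27 for RPS26, a protein at the mRNA exit channel. RPL17 was counted at 1.09 to 1.54 CPM with T-REX and 0.941 to 3.21 CPM with DMSO. RPS26 was at 10.1, 13.3, 12.3 and 10.6 CPM against 16.1, 12.6, 15.3 and 15 CPM, with a log2 fold change of -0.35 ± 0.12 and an adjusted p of 0.065. The largest mean increases were in RPL3L (0.24) and RPL10 (0.18). RPL10 was at 761, 755, 735 and 752 CPM with T-REX and at 715, 661, 378 and 691 CPM with DMSO.

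RPS6 at 12 h was at 1064, 1130, 1116 and 1100 CPM with T-REX and at 1090, 1118, 783 and 1124 CPM with DMSO. Its log2 fold changes were 0.10 ± 0.09 against DMSO, 0.12 ± 0.09 against light alone and -0.01 ± 0.09 against probe alone. The genes of the particle that binds MDM2 were also not called. RPL5 was at 645, 677, 630 and 651 CPM with T-REX and 664, 696, 646 and 616 CPM with DMSO, and RPL11 was at 229, 231, 237 and 237 CPM against 259, 261, 224 and 209 CPM. Probe alone was higher for RPL11, at 337, 293, 326 and 229 CPM, with a log2 fold change of T-REX of -0.35 ± 0.09 and an adjusted p of 0.11.

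Over the 9 comparisons of T-REX with a control, the other genes named from the start were called in none, apart from RPL7. RPSA, the small subunit protein also known as the laminin receptor, ran from -0.16 to 0.08 in log2 fold change. RPL3, a protein near the peptidyl transferase centre, ran from -0.14 to 0.15, and RPS4X from -0.16 to 0.20. RPL41, a very short large subunit protein, spread further, from -0.38 to 0.58, with a smallest adjusted p of 0.14. RPS27 ran from -0.41 to 0.61, and its largest value was against light alone at 3 h, where it was 0.33 without replicate 3 of T-REX.

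The paralogs were also uncalled in the 9 comparisons. RPL7L1 ran from -0.07 to 0.09, RPL26L1 from -0.09 to 0.11 and RPS27L from -0.13 to 0.13. RPL22L1 was lowest against DMSO at 12 h, at -0.25 ± 0.11 with an adjusted p of 0.14. The low RPL3L and RPL39L spread most, up to 0.66 ± 0.31 and 0.45 ± 0.20, and neither passed. The parents RPL22, RPL26 and RPL39 lay between -0.18 and 0.18.

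At no time did any of the 83 genes pass in the same direction for 2 or more controls, beside 0.947%, 0.136% and 1.4% of all genes at 3, 6 and 12 h. In other fits some did, 5 members at 3 h with DESeq2 and, without replicate 3 of T-REX, RPL7 and RPL32, both lower. All genes were not counted by this rule in those fits. None was called in any of the 6 contrasts of the T-REX difference between 6 or 12 h and 3 h, beside 0.102% of all genes in at least 1 of them. DESeq2 called 4 members in at least 1 of these contrasts, and the counts at an unadjusted p of at most 0.05 ran from 6 to 20 members, or 7.23% to 24.1%, beside 4.57% to 15.4% of all genes. The precision behind these counts was a median standard error of 0.10 in log2 fold change for a member at 3 and 6 h and 0.09 at 12 h, beside 0.10 for all genes at each time. Split by annotated start, the 47 genes with a TOP start had a median of 0.04 against DMSO at 3 h and of -0.04 at 12 h. The 19 without one by this rule had medians of 0.04 and 0.00. Tracts offset from the annotated start fall among the 19, so the split cannot separate TOP mRNAs from others.

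**Figure D2:**
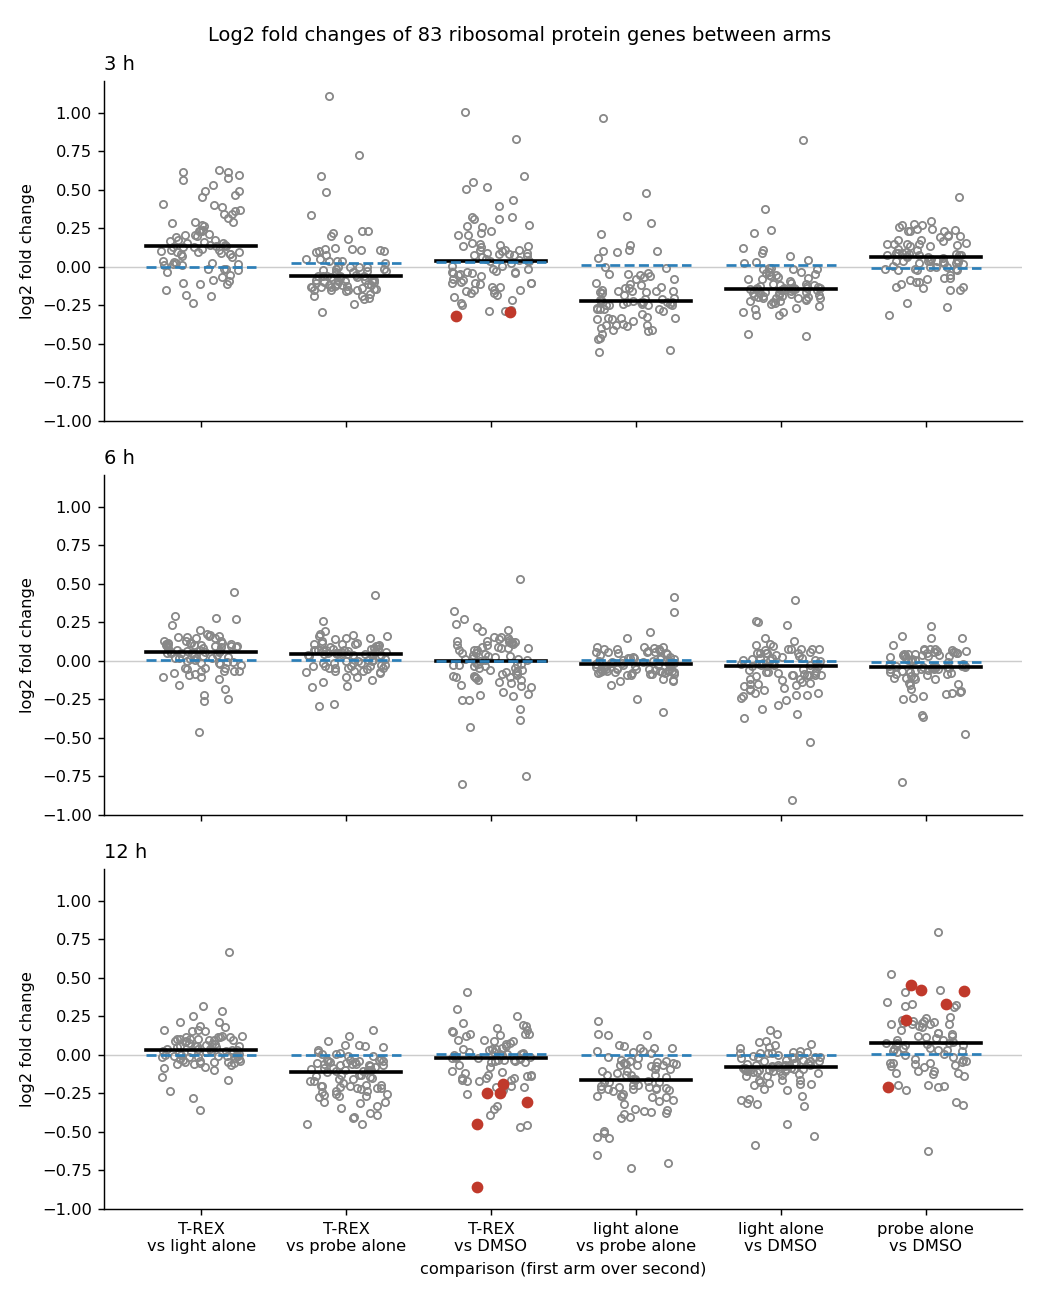
Log2 fold changes of the 83 genes for the 6 comparisons of arms at each time, where each point is 1 gene, filled red points are called, black lines are medians of the 83 genes and dashed blue lines medians of all genes. No gene is called at 6 h, 8 are called against DMSO for T-REX, and the members' median lies lowest for light alone against probe alone at 3 h, at -0.22.

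The controls also differed from each other. At 3 h no member was called between controls beside 0.232% of all genes called in at least 1 of the 3 comparisons. Yet light alone lay below probe alone for 72 of 83 members, with a median log2 fold change of -0.22 over members and 0.01 over all genes. In 42 members (50.6%) the 4 light alone libraries were all below the 4 probe alone libraries, beside 5.86% of all genes, and 50 members (60.2%) had an unadjusted p of at most 0.05, beside 14.0% of all genes. DESeq2 called 20 members lower, beside 1.63% of all genes, and a fit on the 2 arms alone 23, beside 1.06%. edgeR called 28, beside 1.34% of all genes, when replicate 3 of T-REX, which adds only to the estimate of the spread, was left out. Examples chosen after their values were seen were RPL10 (712 ± 41 CPM against 909 ± 85 CPM, SD, n = 4) and RPL14, a large subunit protein (410 ± 17 against 482 ± 15 CPM). Their log2 fold changes were -0.34 ± 0.07 and -0.22 ± 0.05 (SE), with adjusted p-values of 0.063 and 0.079. Against DMSO at 3 h, 18 members of light alone lay wholly below, beside 3% of all genes, and 22 (26.5%) had an unadjusted p of at most 0.05, beside 7.78% of all genes.

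At 6 h no member was called between controls, beside 0.0749% of all genes, and 1 to 7 members (1.20% to 8.43%) had an unadjusted p of at most 0.05, beside 8.21% to 14.4% of all genes. DESeq2 also called none. The medians of the 83 members lay between -0.04 and -0.02.

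At 12 h, 6 members were called for probe alone against DMSO, 5 higher and 1 lower, beside 1.74% of all genes called higher and 3.37% called lower. RPS19, the gene most often mutated in Diamond-Blackfan anaemia, was at 122, 114, 117 and 95.3 CPM with probe alone and at 104, 87.7, 62.2 and 82.3 CPM with DMSO. The log2 fold change was 0.42 ± 0.10 with an adjusted p of 0.027. RPL37 was at 256, 215, 250 and 191 CPM against 201, 173, 126 and 166 CPM, and RPS18 was at 451, 423, 467 and 362 CPM against 378, 337, 231 and 328 CPM. In these 3 genes the lowest library was replicate 3 of DMSO and the groups overlapped.

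RPS29 was at 88.5, 74.0, 78.4 and 61.2 CPM against 56.5, 70.7, 53.6 and 60 CPM. The log2 fold changes of RPL37, RPS18 and RPS29 were 0.45, 0.42 and 0.33. RPS3A went the other way, at 650, 690, 701 and 620 CPM with probe alone and 743, 811, 786 and 743 CPM with DMSO, and it fell by 0.21 ± 0.05 with an adjusted p of 0.026. The groups did not overlap for RPS3A, and in RPS29 the lowest probe alone library lay within the DMSO values. RPS3A was the 1 member wholly lower with probe alone, beside 5.97% of all genes. Without replicate 4 of probe alone 20 members were called, all higher, beside 3.02% of all genes, and without replicate 1 there were 0, beside 2.21%. A fit on the 2 arms alone called 0, beside 0.0953%. Light alone lay below probe alone again at 12 h with a median of -0.16 over members, 0 calls beside 0.415% of all genes, and 40 members (48.2%) at an unadjusted p of at most 0.05, beside 12.6% of all genes. DESeq2 called 12 lower, beside 1.91% of all genes.

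Time moved more of the genes. From 3 to 12 h, 31 members were called with T-REX (30 lower and 1 higher), 4 with light alone (all lower), 14 with probe alone (13 lower and 1 higher) and 15 with DMSO (14 lower and 1 higher). All genes were called at 41.7%, 39.4%, 42.3% and 38.8%, so that each member share was below that of all genes. The lower calls of all genes were 20.6%, 19.0%, 21.0% and 18.4%, and the T-REX members called lower were 36.1% of the group. Without replicate 3 of T-REX at 3 h the T-REX count was 12, with 9 lower. The probe alone count was 6 without replicate 4 of 12 h, and the DMSO count was 8 without replicate 4 of 3 h. The shares of all genes called in these fits are not given here, so whether the group alone moved cannot be told. With all libraries the medians over members were -0.16, -0.04, -0.12 and -0.14.

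RPL7L1, the paralog of RPL7, was the one member called in the same direction in all 4 arms from 3 to 12 h, beside 21.9% of all genes. With T-REX it was at 191, 187, 188 and 166 CPM at 3 h and at 141, 137, 142 and 133 CPM at 12 h. With DMSO it was at 174, 174, 168 and 180 CPM at 3 h and at 132, 130, 115 and 143 CPM at 12 h. No 12 h library reached a 3 h library of its arm in either. Wholly lower members were 18 with T-REX and 13 with DMSO, beside 15.1% and 14.1% of all genes. RPL7L1 fell by 0.41 ± 0.05 on the log2 scale in the T-REX arm, fell by 0.33 ± 0.05 under light alone, fell by 0.34 ± 0.05 under probe alone and fell by 0.43 ± 0.05 in DMSO.

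From 3 to 6 h, 10 members were called with T-REX (3 higher and 7 lower), 8 with light alone (7 higher and 1 lower), 12 with probe alone (all lower) and 5 with DMSO (1 higher and 4 lower). All genes were called at 23.3%, 25.3%, 21.5% and 16%. These counts moved with single libraries, to 2 for T-REX without its replicate 2 of 6 h and 4 without its replicate 3 of 3 h, to 3 for light alone without its replicate 2 of 3 h and to 0 for DMSO without its replicate 4 of 6 h. The probe alone count was 1 without its replicate 1 of 3 h and 23 without replicate 3 of T-REX at 3 h. The shares of all genes called in these fits are not given here, so whether the group alone moved cannot be told. No member was called in the same direction in all 4 arms, beside 6.35% of all genes, and DESeq2 called 1. RPS3A rose with T-REX from 3 to 6 h (0.30 ± 0.06, adjusted p = 0.00051) and from 3 to 12 h (0.22 ± 0.06, adjusted p = 0.0041), and with light alone from 3 to 6 h (0.17 ± 0.06, adjusted p = 0.043). With DMSO its log2 change was -0.12 at 6 h and 0.04 at 12 h, neither called. The test of the difference itself gave a T-REX effect against DMSO that was 0.42 ± 0.09 higher at 6 h than at 3 h, with an adjusted p of 0.051, which did not pass. Against light alone and probe alone this difference was 0.13 ± 0.09 and 0.28 ± 0.09, and neither passed. The changes of RPS3A with T-REX and these differences use the T-REX libraries of 3 h that gave its call against DMSO. They are not independent of that call.

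The spread between replicate libraries was itself uneven over the group. The SD of log2 CPM within an arm and time had a median of 0.16 over the 83 genes, beside 0.11 over the 10172 genes above 8 CPM. It was lowest in RPL14 (0.070) and RPL7L1 (0.075) and highest in RPLP2 (0.54), RPS15 (0.49), RPL3L (0.42) and RPL36 (0.38). Genes with GC-rich transcripts spread more. The 6 members with at least 60% GC had a median SD of 0.36, and the 44 members under 50% had 0.13. Across the 83 genes Pearson's r between SD and GC was 0.60 and Spearman's rho 0.57, a description over genes that share the same 48 libraries. Among 10070 other genes above 8 CPM, r was 0.52. Genes with fewer counts also spread more, with r = -0.47 and rho = -0.46 between SD and log2 mean CPM over the 83 genes. Length was less related (r = -0.19). How far GC and level act apart was not tested.

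**Figure D3:**
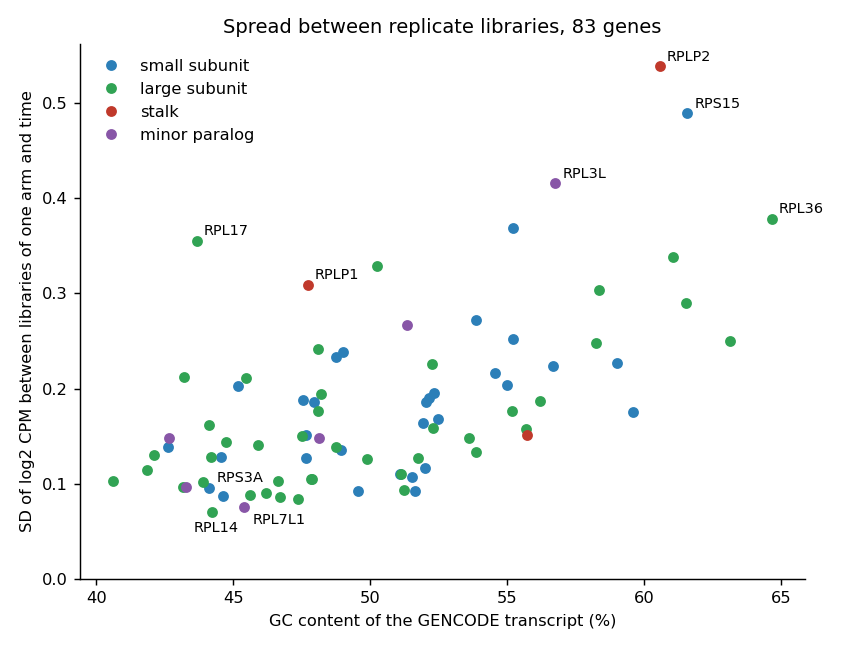
SD of log2 CPM between libraries of the same arm and time, pooled over the 12 groups of 4 libraries, against the GC content of the GENCODE transcript in percent, for each of the 83 genes, coloured by class. The SD is highest for RPLP2 and RPS15 above 60% GC and lowest for RPL14 and RPL7L1 near 45% GC.

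Genes that act beside these proteins were counted from lists. Of 4 ribosomal protein genes outside the naming rule, RACK1 alone was called lower with T-REX than with DMSO at 3 h. RACK1, a small subunit protein that docks signalling kinases, fell by 0.28 ± 0.06 (adjusted p = 0.0078) and fell by 0.24 ± 0.06 against probe alone (adjusted p = 0.047). Against light alone its log2 fold change was -0.12 with an adjusted p of 0.36. FAU, which encodes a small subunit protein fused to a ubiquitin-like sequence, was at -0.08 against DMSO.

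Of 28 TOP mRNAs other than ribosomal proteins, 7 were called lower and 1 higher with T-REX than with DMSO at 3 h, and 5 lower and 1 higher at 12 h. All genes were called lower at 4.54% and 6.79% in these comparisons. Probe alone against DMSO, which shares the DMSO libraries, also gave 5 lower and 1 higher at 12 h, and T-REX at that time gave 0 calls against light alone and 0 against probe alone. The median was -0.03 at 3 h, beside 0.03 over all genes. EIF3E, a subunit of the initiation factor that holds the small subunit, fell by 0.32 ± 0.05 at 3 h (adjusted p = 0.0013). PABPC1, which binds the poly(A) tail, fell by 0.22 ± 0.05 (adjusted p = 0.0098), and EIF3F rose by 0.22 ± 0.05 (adjusted p = 0.0077). Against probe alone at 3 h 2 were called lower. The import receptors IPO5 and IPO7 stand in this list and in the list of chaperones and import. IPO7 fell by 0.30 ± 0.04 against DMSO (adjusted p = 0.0010) and by 0.18 ± 0.04 against probe alone (adjusted p = 0.047) at 3 h.

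Of 76 ribosome assembly and rRNA processing factors, 13 were called lower and 0 higher with T-REX than with DMSO at 12 h, beside 6.79% of all genes called lower. The median was -0.05. Probe alone against the same DMSO libraries gave 6 lower, beside 3.37% of all genes, with a median of -0.06. T-REX gave 0 calls in this list against light alone and 0 against probe alone at 12 h. GAR1 and NHP2, of the particle that makes pseudouridine in ribosomal RNA, fell by 0.52 ± 0.11 and 0.48 ± 0.10 (adjusted p-values of 0.0048 and 0.0044). IMP3, of the small subunit processome, fell by 0.49 ± 0.13 (adjusted p = 0.020). At 3 h 2 were lower and 1 higher. Of 14 RNA polymerase I genes 2, POLR1B and POLR1F, were lower with T-REX than with DMSO at 12 h and 0 at 3 h. Of 12 chaperones and import receptors of ribosomal proteins, 3 were lower at 3 h and 3 at 12 h. Of 13 genes of ribosome collision and hibernation, 2 were lower at 3 h, and 3 were lower and 1 higher at 12 h. The shares of all genes called lower were again 4.54% at 3 h and 6.79% at 12 h. Probe alone against DMSO at 12 h gave 2, 2 and 3 lower in the 3 lists, and T-REX against light alone or probe alone gave 0 in each at that time. In the last list SERBP1, which binds idle ribosomes, was at -0.19 and -0.32 against DMSO at 3 and 12 h.

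Of the 19 genes of LARP1 and mTORC1 control, 1 was called lower at 3 h, and 2 were lower and 1 higher at 12 h against DMSO, beside the same shares of all genes, with 4.09% higher at 12 h. Probe alone against DMSO gave 2 lower at 12 h. EIF4EBP1, an inhibitor of cap-dependent initiation, rose by 0.41 ± 0.11 (adjusted p = 0.018), and rose by 0.47 ± 0.11 against light alone (adjusted p = 0.028). EIF4EBP2 fell by 0.35 ± 0.06 (adjusted p = 0.00059). LARP1 itself was at 0.17 ± 0.06 against DMSO at 12 h with an adjusted p of 0.052, which did not pass, and RPS6KB1, the S6 kinase gene, at -0.07 ± 0.06 with an adjusted p of 0.46. Of the 4 genes in the list around MDM2, 2 were called higher with T-REX than with DMSO at 12 h, beside 4.09% of all genes. Against light alone 2 were higher, beside 0.497%, and against probe alone 0. Probe alone against DMSO gave 1 higher, beside 1.74%. MDM4 rose against DMSO at 12 h by 0.32 ± 0.06 (adjusted p = 0.00068), and MDM2 and MDM4 rose against light alone by 0.26 ± 0.06 and 0.27 ± 0.06. MDM4 also rose against DMSO at 3 h by 0.21 ± 0.06.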

How the data were processed

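Gene expression was measured by stranded, rRNA-depleted RNA-seq in 48 libraries. The authors deposited raw counts per gene, 1 table for each time with the same 14685 genes, log2 CPM and, in the sample descriptions, 2 scores per library from removal of unwanted variation (RUV). The labels name bcl2fastq. The counter, genome build and annotation of the counts are not given in the sources used here. A table of RUV-adjusted values was not used.

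The 83 genes and all gene lists were chosen with earlier results of these data known. Lists covered TOP mRNAs, ribosomal proteins outside the rule, assembly factors, RNA polymerase I, LARP1 and mTORC1 control, genes around MDM2, chaperones and import, ribosome collision and hibernation, HEK293T markers and markers of other cell types. Genes were named if called in 1 direction against at least 2 controls (none was), if among the 3 largest mean log2 fold changes per direction and time, or from a fixed set that included RPS6, RPL5, RPL11, RPL9, RPL32, the stalk genes and the paralogs. Lists gave up to 4 called genes each. Some genes that the rule names are not reported here.

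Tests were edgeR 4.0.16 quasi-likelihood tests in R 4.3.3 (TMM normalization, filterByExpr, which removed 0 genes, and robust fitting) over the 16 libraries of a time, and over all 48 for changes with time. Benjamini-Hochberg adjustment covered all genes of a comparison, and an adjusted p of at most 0.05 was a call. Printed CPM are TMM-scaled. Standard errors are the log2 fold change over the root of the F statistic, and fold changes are first arm over second. The SD within arms used log2(CPM + 0.1). Lengths and GC come from GENCODE 29 principal transcripts and promoters from RefSeq. Each p-value reflects spread between libraries only. Fits were tested on simulated data. Alternatives were RLE factors, library totals, DESeq2 1.42.0, no filter, replicate number as a block, the RUV scores as covariates, limma 3.58.1 on the deposited log2 CPM (within a time only, as the tables were normalized separately), a length and GC correction, fits of 2 arms, and leaving out each library. Same-numbered libraries had deviations from the group mean that correlated above 0.1 in every pair for T-REX and probe alone at 6 h, T-REX at 3 and 12 h and DMSO at 3 and 6 h. The fit with replicate number as a block joined libraries within a time only, so it could not take up a pairing across times. It moved none of these 3 counts of called members by more than 1.5 times. For the 2 pairings across times this does not show that leaving them out is harmless. The labels do not say that numbers mark a shared batch.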

Additional observations from a re-analysis of the deposited data

Results flagged for a closer look

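In 140 groups of 4 libraries, made up of the summed share of the 83 genes and the genes printed library by library, 4 had a library whose gap to its neighbour exceeded Dixon's 95% critical value. Chance flags about 1 group in 20, which would be 7. The summed share in replicate 3 of T-REX at 3 h was not flagged. RPS3A with light alone at 3 h was at 601 CPM in replicate 4, and the other 3 libraries lay from 697 to 700 CPM. RPL32 with light alone at 6 h was at 680 CPM in replicate 2, and the others lay from 563 to 569 CPM. Replicate 3 of DMSO at 12 h was low for RPL10, at 378 CPM against 661 to 715 CPM, and for RPS6, at 783 CPM against 1090 to 1124 CPM.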

How the results depend on the processing

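The 14 calls of members between arms each kept their direction in 25 alternatives, and the calls of RPL7L1 and RPS3A over time did so in 54. The genes of the other lists were not refitted under the alternatives. The counts of called members moved more. With DESeq2 they were 8, 4 and 6 for T-REX against light alone, probe alone and DMSO at 3 h, 0, 0 and 2 at 6 h and 0, 3 and 9 at 12 h. All genes called were 260, 623 and 1200 of 14685 at 3 h, in the same order. They were 153, 57 and 288 at 6 h and 409, 257 and 2069 at 12 h. Over the 3 comparisons between controls DESeq2 called 20 members at 3 h and 20 at 12 h. It called 1 in all 4 arms from 3 to 6 h and 4 in the contrasts of T-REX with time. Counts that join several comparisons were not made for all genes in the alternatives. With the RUV scores as covariates the 3 counts for T-REX were 39, 25 and 31 at 3 h, 3, 1 and 8 at 6 h and 1, 20 and 23 at 12 h, those between controls 54, 11 and 45 at 3, 6 and 12 h, those in all 4 arms 2 at 6 h and 4 at 12 h, and the contrasts with time 23. For the T-REX comparisons with the RUV scores, all genes called were 1733, 2551 and 3061 at 3 h. They were 1202, 257 and 1048 at 6 h and 1266, 901 and 3925 at 12 h. The length and GC correction gave 7 against probe alone and 9 against DMSO at 3 h, 1 against DMSO at 6 h and 11 at 12 h. All genes called were 564, 1222, 296 and 2308 in the same order. Library totals gave 1 against DMSO and 1 between controls at 3 h, and RLE factors 1 in all 4 arms from 3 to 6 h. With library totals, all genes called at 3 h were 813 against DMSO and 46 for light alone against probe alone. Fits on 2 arms gave 1 against DMSO at 3 h, 1 against probe alone at 6 h, and at 12 h 14 for light alone, 1 for probe alone and 0 for DMSO. All genes called were 187, 88, 1127, 389 and 366 in the same order. The count of members called in 1 direction against at least 2 controls, 0 at each time, was 5 at 3 h with DESeq2 and 5 with the length and GC correction, and 26, 2 and 8 at 3, 6 and 12 h with the RUV scores. The cause of these differences was not tested.

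Leaving out 1 library at a time gave 0 to 1, 0 to 5 and 1 to 7 called members for T-REX against light alone, probe alone and DMSO at 3 h, 0 to 2 against DMSO at 6 h, and 0 to 12 and 2 to 13 against probe alone and DMSO at 12 h. The counts of 5 and 7 came without replicate 3 of T-REX at 3 h. The shares of all genes beside the counts of 5, 7, 12 and 13 are given above. The count against DMSO at 3 h was 1 without replicate 1, 2 or 4 of DMSO or replicate 1 or 4 of T-REX, and at 12 h it was 3 without replicate 3 of DMSO or of T-REX. Between controls the counts ran from 0 to 28 at 3 h and from 0 to 27 at 12 h, in all 4 arms from 0 to 1 at 6 h and from 1 to 2 at 12 h, and in the contrasts with time from 0 to 4. At least 2 controls were passed by 1 member at 3 h without replicate 2 of T-REX, by 1 without replicate 4 of probe alone and by 2 without replicate 3 of T-REX, and by 1 at 12 h without replicate 4 of probe alone.

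Over the whole design replicate numbers did not pair the libraries. Same-numbered libraries had correlated deviations above 0.1 in 31 of 72 pairs, and 16 of 48 libraries correlated best with their own number. With the replicate block, 3 members were called in the contrasts of T-REX with time and 4 for T-REX against DMSO at 12 h, and T-REX from 3 to 6 h, where 3 of 4 pairs were above 0.1, gave 4 (3 higher and 1 lower) against 10. This block joined libraries within a time only, not across times. The length and GC correction and the fits on 2 arms were run for arms only, and limma was not run across times.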
